A study of Mus musculus with 7 samples.

Results

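Krt7, Krt8, Krt18, Krt19 and Krt42 are the keratin genes described here, and their transcripts were measured in 7 RNA-seq libraries of inner cell masses from mouse blastocysts. The members were taken by symbol, and all 5 were found among the 52636 genes of the count table; 4 passed the expression filter, with Krt42 below it, so 16248 genes in all were tested. Krt8 and Krt18 were among the most abundant transcripts of each library, Krt7 was far lower, Krt19 lower again, and Krt42 almost without counts. Krt7, Krt8 and Krt18 had lower group means after 4 h of tamoxifen, with overlapping groups, and no keratin passed the adjusted test.

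Keratins are the intermediate filament proteins of epithelia. A filament is built from pairs of an acidic type I and a basic type II keratin, so neither type forms filaments alone. Krt7 and Krt8 are type II, and Krt18, Krt19 and Krt42 are type I. In the mouse blastocyst keratin filaments are known from the trophectoderm, the outer epithelium that makes the placenta, where Krt8 and Krt18 are standard markers. In human cells the first intron of KRT18 is known to hold an enhancer that responds to Ras signalling through ETS and AP-1 factors, so the gene has been studied downstream of the pathway that the construct activates.

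The embryos were Sox2Cre;CRAFR26 in every library. They carried an inducible cRAF construct and a Cre transgene named for Sox2, a gene of the inner cell mass and epiblast. They were collected at embryonic day 2.5 and kept for 24 h in medium with 250 nM PD173074, a blocker of FGF receptors, so controls and treated embryos alike had that drug. Tamoxifen, given as 250 nM 4OHT for 4 h to induce ERK signalling through the construct, was compared with vehicle. Ethanol for the same 4 h was the vehicle, which the time label calls 0 h. The labels call the samples epiblast of embryonic day 3.5. The outer layer had been taken off by immunosurgery, and 10 inner cell masses were pooled per library, so each value is a mean over embryos. There were 3 vehicle libraries (clone4_1, clone4_2 and clone8_1) and 4 tamoxifen libraries (clone4_1, clone4_2, clone8_1 and clone8_2), named by clone 4 or 8; the mouse line was made from embryonic stem cells. Nothing states that same-named libraries share embryos or a culture, so the main fit treated the libraries as unpaired. Its p-values set the group difference against the spread between pools within a condition, with both clones together.

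Total counts lay between 22981498 and 42294719 per library. Levels are given as CPM, counts relative to the library total after TMM scaling, and fold changes are tamoxifen over vehicle on the log2 scale with their standard error (SE). Both libraries named clone8_1 had the lowest mean correlation with the others (0.929 for vehicle and 0.931 for tamoxifen, against at least 0.944). Vehicle clone8_1 also had few counts from short transcripts, with a median deviation of -0.83 (log2) for 507 coding genes whose typical transcript is under 600 nt. The keratins here are longer, 1437 nt for Krt18, 1542 nt for Krt42, 1576 nt for Krt19, 1958 nt for Krt8 and up to 4094 nt for Krt7. In the class from 1000 to under 2000 nt, the median deviation of that library was 0.

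The genes lie in the mouse keratin clusters (GENCODE M21, GRCm38). Krt8 (ENSMUSG00000049382, chromosome 15, 101996698 to 102004482, minus strand) and Krt18 (ENSMUSG00000023043, chromosome 15, 102028180 to 102032027, plus strand) are neighbours 23.7 kb apart that are transcribed away from each other. Krt7 (ENSMUSG00000023039, chromosome 15, 101411043 to 101430313, plus strand) lies 566 kb before Krt8. Krt19 (ENSMUSG00000020911, 100140810 to 100148665) and Krt42 (ENSMUSG00000053654, 100262882 to 100269871) are both on the minus strand of chromosome 11. Non-coding genes on the other strand overlap Krt7 by 1269 nt and Krt8 by 271 nt, and without a stated strand setting their reads cannot be told apart from those of the keratins.

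The promoters of the 3 most abundant members are shown because the levels of these genes rose and fell together over the libraries, as described further on. Each line gives 250 bases before the annotated start and the first 30 after it, from RefSeq (GRCm38.p6), read 5′ to 3′ on the gene's strand. Of the 5 members, 4 had an entry; Krt19 did not. The windows are chr15:102004313-102004592 (minus strand) for Krt8, chr15:102027966-102028245 (plus strand) for Krt18 and chr15:101412153-101412432 (plus strand) for Krt7. These RefSeq starts are not those of the GENCODE genes above. The Krt7 window lies wholly within the GENCODE gene, which begins at 101411043. For Krt8 and Krt18 the bases before the RefSeq start lie partly within the GENCODE gene. Capitals mark matches on either strand to TATAA, the core of the box of that name, AGATAA, bound by GATA factors, GGGCGG, the GC box of Sp1, TGANTCA for AP-1, GGAATG for TEAD, AGGAAG for ETS factors and GCCNNNGGC for AP-2, with N for any base; the motifs were picked after the sequences had been seen.
Krt8: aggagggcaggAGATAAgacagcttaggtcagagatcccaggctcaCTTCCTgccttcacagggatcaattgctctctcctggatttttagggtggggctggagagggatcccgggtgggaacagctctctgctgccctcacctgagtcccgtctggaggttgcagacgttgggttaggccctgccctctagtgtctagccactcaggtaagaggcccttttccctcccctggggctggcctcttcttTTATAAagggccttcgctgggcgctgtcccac
Krt18: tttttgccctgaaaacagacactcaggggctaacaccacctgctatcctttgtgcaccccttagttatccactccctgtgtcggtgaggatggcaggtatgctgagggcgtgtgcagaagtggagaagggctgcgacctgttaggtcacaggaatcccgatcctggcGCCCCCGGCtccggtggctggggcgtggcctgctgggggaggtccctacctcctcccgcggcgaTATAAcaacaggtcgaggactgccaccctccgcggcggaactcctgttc
Krt7: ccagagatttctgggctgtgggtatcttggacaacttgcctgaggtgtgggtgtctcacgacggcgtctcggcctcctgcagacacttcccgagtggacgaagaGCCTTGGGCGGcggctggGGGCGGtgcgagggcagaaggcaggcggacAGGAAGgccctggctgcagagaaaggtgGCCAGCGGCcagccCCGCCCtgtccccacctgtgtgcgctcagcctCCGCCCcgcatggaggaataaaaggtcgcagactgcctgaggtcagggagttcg

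Each pair of these windows shared 1 of the motifs, and no motif was in all 3. Krt8 and Krt18 shared TATAA, Krt8 and Krt7 AGGAAG, and Krt18 and Krt7 GCCNNNGGC. In Krt18 TATAA lay 19 bases before the RefSeq start but within the GENCODE gene. In Krt8 it spanned the RefSeq start itself, read on both strands. TATAA was found in 24.0% of all 32851 promoter windows of this length. Krt8 had AGATAA at 239 bases before the start (10.7% of windows) and AGGAAG at 204 bases on the other strand (32.9%). Krt18 had GCCNNNGGC at 83 bases (15.4%). Krt7 had no TATAA. It had 4 matches to GGGCGG (34.7% of windows), 2 to GCCNNNGGC, of which that at 146 bases overlaps a GGGCGG, and AGGAAG at 98 bases. Neither TGANTCA (7.46%) nor GGAATG (13.9%) occurred in the 3 windows. Krt42, not shown, had TATAA at 20 bases after its RefSeq start and 2 matches to GCCNNNGGC.

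Krt8, the type II keratin that pairs with Krt18 in simple epithelia, was at 3837, 2588 and 3104 CPM in the vehicle libraries, in the order clone4_1, clone4_2 and clone8_1. The tamoxifen libraries, in the order clone4_1, clone4_2, clone8_1 and clone8_2, had 2659, 2322, 3018 and 2250.0 CPM. The groups overlapped, since tamoxifen clone4_1 and clone8_1 lay above vehicle clone4_2. Vehicle averaged 3176 ± 628 CPM (SD, n = 3), and tamoxifen 2562 ± 352 CPM (SD, n = 4). The log2 fold change was -0.31 ± 0.18 (SE), with unadjusted p = 0.107 and adjusted p = 0.794 (edgeR).

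Krt18, the type I partner, was at 4127, 2772 and 3060.4 CPM in the vehicle libraries, in the same order. With tamoxifen it was at 2876, 2393, 3957 and 1969 CPM. Its highest and second highest values, in vehicle clone4_1 and tamoxifen clone8_1, came from different groups. The means were 3319.5 ± 714 CPM (SD, n = 3) and 2799 ± 856 CPM (SD, n = 4). On the log2 scale tamoxifen differed from vehicle by -0.25 ± 0.24 (SE; adjusted p = 0.839, edgeR). By rank of raw count among all genes, Krt18 stood between 7 and 27 in each library and Krt8 between 13 and 24.

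Krt7, a type II keratin of simple epithelia and of trophoblast, was at 71.2, 21.6 and 23.7 CPM in the vehicle libraries. With tamoxifen it was at 16.9, 10.3, 28.9 and 10.0 CPM. Vehicle clone4_1 stood far above the other vehicle libraries, and tamoxifen clone8_1 lay above both of those. The means were 38.8 ± 28.0 CPM (SD, n = 3) and 16.5 ± 8.83 CPM (SD, n = 4), and the log2 fold change was -1.24 ± 0.49 (SE). Its unadjusted p was 0.0292 and its adjusted p 0.794 (edgeR). Krt7 was the 1 keratin of 4 tested with an unadjusted p under 0.05 (edgeR). Over all genes tested, 3.28% had such a p with a lower value, 2.69% with a higher value and 5.97% in either direction, while 0% passed the adjusted threshold. Of the 4, 3 had a negative fold change, against 48.3% of all genes. In all 4 the groups overlapped. Over all genes the tamoxifen libraries lay wholly below the vehicle libraries in 4.74% and wholly above them in 3.71%.

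Krt19, a small type I keratin that lacks the tail domain of its relatives, was at 1.27, 3.18 and 1.95 CPM in the vehicle libraries. With tamoxifen it was at 3.77 and 6.47 CPM in the clone 4 libraries and at 0.831 and 0.510 CPM in the clone 8 libraries. All values rested on 21 to 159 counts per library. The vehicle libraries therefore lay between the tamoxifen libraries of the clones, and the log2 fold change over both clones was 0.44 ± 0.81 (SE; adjusted p = 0.912, edgeR).

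Krt42, a type I keratin, had 0, 0 and 1 counts in vehicle clone4_1, clone4_2 and clone8_1, and 2, 0, 18 and 1 counts in the tamoxifen libraries. A count of 0 allows up to 3 counts, which is 0.0710 to 0.129 CPM depending on the library; such limits cover counting error only. Tamoxifen clone8_1, at 0.650 CPM, was the single library above that limit, and no fold change is given.

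**Figure D1:**
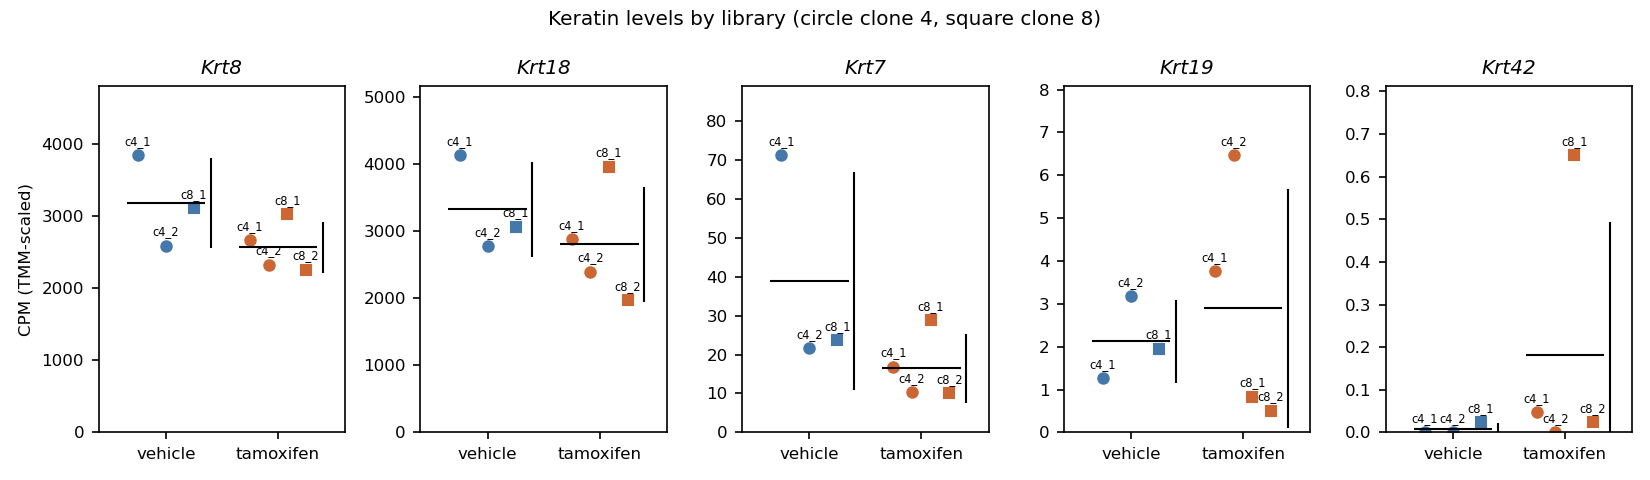
CPM of the 5 keratins in each library (y axis, TMM-scaled), with vehicle in blue and tamoxifen in orange, circles for clone 4 and squares for clone 8. Horizontal lines are group means and vertical lines 1 SD, cut off at 0 where they would fall below it; vehicle clone4_1 is highest for Krt8, Krt18 and Krt7, and the Krt19 values of the tamoxifen libraries separate by clone.

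Divided by transcript length, the levels over all 7 libraries ran in the order Krt18, Krt8, Krt7, Krt19 and Krt42. In CPM per kb the means were 2103 ± 545 for Krt18, 1443 ± 280.3 for Krt8, 6.37 ± 5.14 for Krt7, 1.63 ± 1.33 for Krt19 and 0.0691 ± 0.156 for Krt42 (SD, n = 7). Krt18 was above Krt8 in each library, although their ranges overlapped (1370.1 to 2872 against 1149 to 1959.8 CPM per kb). The largest step was from Krt8 to Krt7, a 227-fold difference in mean level per kb with the longest coding transcript of Krt7 and 131-fold with the median length of its coding transcripts (2368 nt). Whether Krt7 and Krt19 were separated depended on that length. With the longest transcript their ranges overlapped (2.44 to 17.4 and 0.324 to 4.10 CPM per kb), and Krt7 was the higher in 6 of 7 libraries, tamoxifen clone4_2 being the exception. With the median length Krt7 was at 4.22 to 30.1 CPM per kb, above the range of Krt19 and higher in 7 of 7 libraries.

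Because the types pair, the sum of type II members over the sum of type I members, per kb, was taken in each library. In the vehicle libraries, ordered as above, it was 0.688, 0.687 and 0.747. In the tamoxifen libraries it was 0.680, 0.712, 0.562 and 0.840. The 4 clone 4 libraries thus differed little from each other, and both extremes came from the tamoxifen libraries of clone 8. The group means were 0.707 ± 0.034 (SD, n = 3) and 0.699 ± 0.114 (SD, n = 4), a difference smaller than the SD of either group. Krt7 gave between 0.211% and 0.879% of the type II sum, so the ratio was that of Krt8 to Krt18.

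Over the 7 libraries Krt8, Krt18 and Krt7 went up and down together. On log2 CPM, Pearson's r was 0.91 between Krt8 and Krt18 (Spearman's rho 0.96), 0.97 between Krt7 and Krt8 (rho 0.93) and 0.91 between Krt7 and Krt18 (rho 0.96). These are descriptions over 7 libraries, vehicle and tamoxifen together, whose genes share a library and its scaling. Krt18 ranked 19 of 16247 genes by r with Krt8. Krt19 did not follow them, with r from -0.23 to -0.12. The range of Krt7 was wider than that of Krt8 or Krt18. Its highest library was 7.12 times its lowest, against 1.71 times for Krt8 and 2.10 times for Krt18. Without vehicle clone4_1, a check added after the data were seen, these were 2.88, 1.38 and 2.01 times, and r was 0.89 between Krt8 and Krt18, 0.92 between Krt7 and Krt8 and 0.91 between Krt7 and Krt18 (6 libraries).

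**Figure D2:**
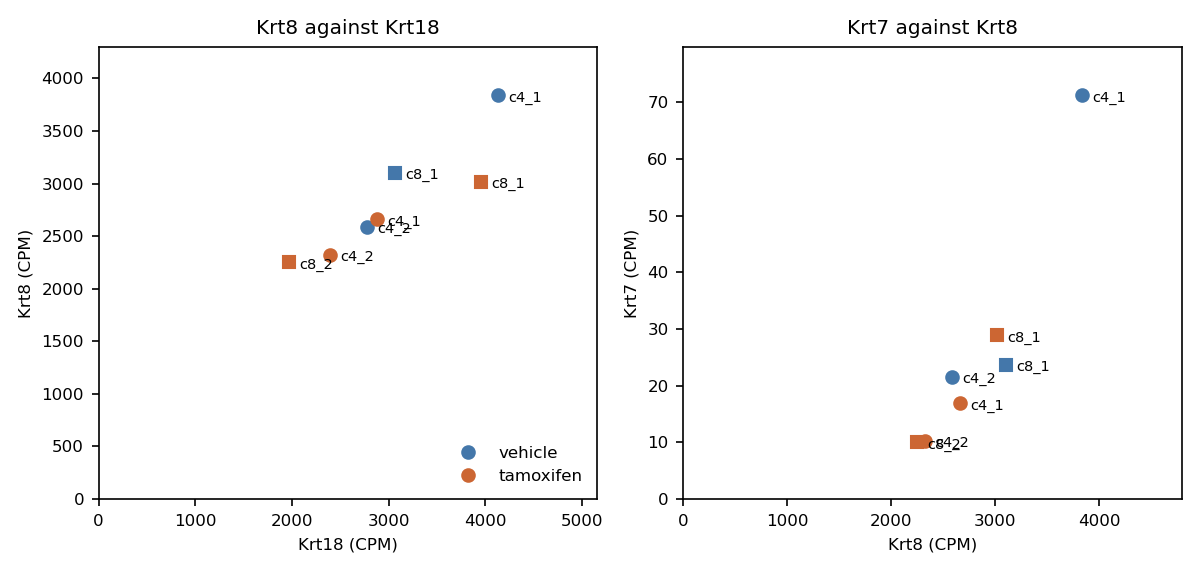
CPM of Krt8 against Krt18 (left) and of Krt7 against Krt8 (right), 1 point per library, vehicle in blue and tamoxifen in orange, circles for clone 4 and squares for clone 8. The libraries fall along a rising line in both plots; tamoxifen clone8_1 lies to the Krt18 side of the others, and vehicle clone4_1 stands apart for Krt7 at 71.2 CPM.

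The genes outside the keratin family whose log2 CPM was most like each member over the 7 libraries were found among 8049 tested genes with a mean of at least 10 CPM. For Krt8 they were Zfp780b (r = 0.98), Tnfrsf10b (0.97), a death receptor, and Pdlim7 (0.96), a PDZ and LIM domain protein of actin filaments. For Krt18 they included Camsap1 (r = 0.98), which binds microtubule minus ends, and Coro1b (0.95), an actin regulator. For Krt7 they were Anxa2 (r = 0.96), a membrane-binding annexin, Tmem79 (0.95) and Tnfrsf10b (0.95). For Krt19 they were Cyb5b, Wdr62 and Cryzl1 (r = 0.96, 0.95 and 0.95). Tnfrsf10b was therefore among the closest for both Krt7 and Krt8, at 30.6, 21.8 and 24.9 CPM in the vehicle libraries and 24.4, 20.04, 24.9 and 19.8 CPM with tamoxifen. The highest of 8049 values of r over 7 libraries are high by selection and were not tested.

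Whether the response differed between clones was asked with an interaction term, which rests on the single vehicle library of clone 8. It was called for 0 of the 4 keratins, while 3.16% of all genes were called. In clone 4 (2 libraries per condition) the log2 fold changes were -1.78 for Krt7, -0.38 for Krt8, -0.40 for Krt18 and 1.20 for Krt19, with adjusted p from 0.557 to 0.699 (edgeR). In clone 8 (1 vehicle and 2 tamoxifen libraries, no test) the log2 ratios of mean CPM were -0.29, -0.24, -0.05 and -1.54. The sign of these values was thus the same in both clones for Krt7, Krt8 and Krt18 and opposite for Krt19. In clone 8, however, the tamoxifen libraries lay on either side of the vehicle library for Krt7 and Krt18. Krt7 was at 28.9 and 10.0 against 23.7 CPM, and Krt18 at 3957 and 1969 against 3060.4 CPM. For Krt8 and Krt19 both tamoxifen libraries of clone 8 lay below it. For Krt19 the interaction was -2.75 ± 1.01 (SE; unadjusted p = 0.0247, adjusted p = 0.256, edgeR), and 14.8% of all genes had an unadjusted p under 0.05 for this term. For Krt7 it was 1.48 ± 1.01 (SE; adjusted p = 0.541, edgeR).

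Single libraries set much of the size of these changes. Over the fits that each left out 1 library, Krt7 ranged from -1.65 (without tamoxifen clone8_1) to -0.48 (without vehicle clone4_1). Krt8 ranged from -0.44 (without vehicle clone4_2) to -0.17 (without vehicle clone4_1). Krt18 ranged from -0.46 (without tamoxifen clone8_1) to -0.08 (without vehicle clone4_1). Without both clone8_1 libraries the log2 fold changes were -1.91 ± 0.46 (SE) for Krt7, -0.42 ± 0.16 for Krt8 and -0.52 ± 0.19 for Krt18. Their unadjusted p-values were then 0.00286, 0.0323 and 0.0272, and their adjusted p-values 0.578 to 0.668 (edgeR). In that fit 1224 of 16877 genes had an unadjusted p under 0.05 in either direction. Without vehicle clone4_1 the unadjusted p-values were 0.285 for Krt7, 0.355 for Krt8 and 0.766 for Krt18 (edgeR).

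**Figure D3:**
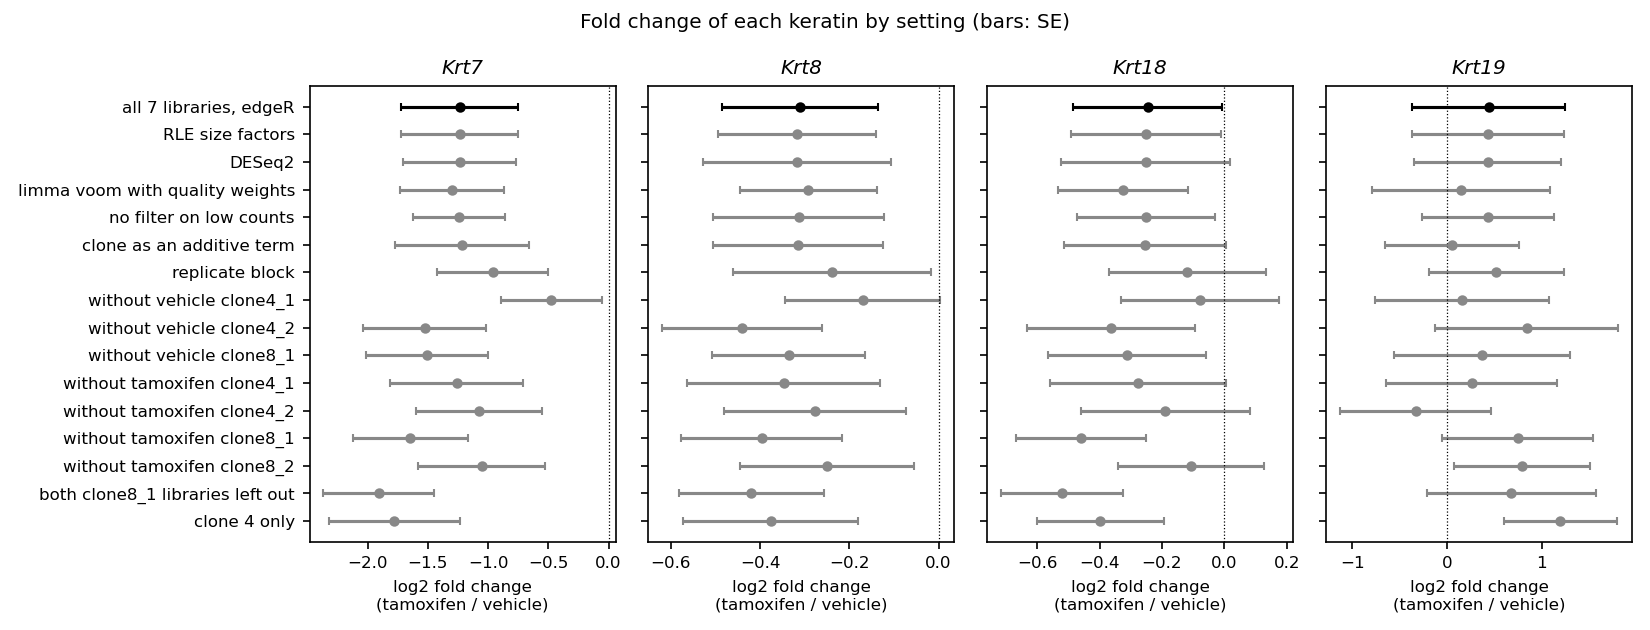
Log2 fold change (x axis, tamoxifen over vehicle) with its SE for the 4 tested keratins under each setting (rows), the fit of all 7 libraries in black. Krt7, Krt8 and Krt18 stay below 0 in every row, and Krt19 moves to -0.33 without tamoxifen clone4_2.

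Other keratins were scarce. The count table held 53 keratin genes, 28 type I and 25 type II by cluster and by the known type of Krt18. Of the 48 that are not members, 6 passed the expression filter and 13 had no count in any library. Krt10, a type I keratin of stratified epidermis, was the next most abundant after Krt7, at 16.0, 9.59 and 2.22 CPM in the vehicle libraries and at 13.2, 11.6, 18.3 and 15.4 CPM with tamoxifen. Krt28 and Krt87 followed, with 321 and 258 counts summed over the libraries. None of the 6 had an unadjusted p under 0.05. Krt14 and Krt17, whose coding transcripts match Krt42 at 85.4% and 84.8% identity, had totals of 83 and 4 counts.

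Processed pseudogenes of both abundant keratins could take reads from them. Krt8-ps matches Krt8 at 98.6% over 941 nt and had 37 to 163 counts per library, in total 0.107% of the Krt8 count. Gm5200 matches Krt18 at 90.5% over 1267 nt and had 131 to 350 counts, 0.226% of Krt18. How the counting divided such reads is not given in the sources used here.

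The cytoskeletal partners of keratins were taken from lists of anchors and of other intermediate filaments. The anchor list held 20 genes, for desmosomal proteins, plakins and hemidesmosomal integrins, and Flg, Tchh and Fam83h, whose proteins associate with keratin filaments. Of these, 19 were matched and 17 tested. Their median log2 fold change was 0.12, against 0.02 for all genes. With tamoxifen 9 were higher and 8 lower, against 48.3% lower over all genes, and 0 were called. Against 3.28% of all genes, 2 had an unadjusted p under 0.05 and were lower. Those were Itgb4, the integrin that anchors keratin at the basal side (13.8 ± 5.34 CPM, SD, n = 3, against 5.32 ± 3.17 CPM, SD, n = 4), and Dsc2, a desmosomal cadherin (45.7 ± 14.99 and 28.6 ± 7.93 CPM). Both had overlapping groups. On the log2 scale Itgb4 differed by -1.37 ± 0.49 (SE) and Dsc2 by -0.68 ± 0.28 (SE). The most abundant were Perp, a desmosome-associated tetraspan protein, at 252 ± 87.3 and 229.7 ± 19.8 CPM, Jup (plakoglobin) at 121 ± 17.3 and 119 ± 13.6 CPM, and Itga6, the partner of Itgb4, at 102 ± 29.1 and 132 ± 22.2 CPM. Of 14 other intermediate filament genes, 11 were tested, and 7 were higher and 4 lower. An unadjusted p under 0.05 was found for 0, against 5.97% of all genes. Their most abundant members were the lamins Lmna, Lmnb1 and Lmnb2, at means of 334, 180.5 and 42.4 CPM over all libraries.

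Keratins mark the trophectoderm, so the other markers of that layer were examined beside them. In bulk RNA, fewer cells of a type and less RNA per cell cannot be told apart. All 18 transcription factors of the list were tested, and 16 were lower and 2 higher with tamoxifen. Of these, 0 were called, 3 had an unadjusted p under 0.05 and were lower, and the median log2 fold change was -0.27. Over all genes tested, 48.3% were lower, 3.28% were lower at such a p, and the median was 0.02. The 3 factors were Gata3, Elf3 and Klf6, at log2 fold changes of -0.47 ± 0.14, -0.53 ± 0.18 and -0.70 ± 0.20 (SE). The defining factors were present in each library, Cdx2 at 324 to 543 CPM and Eomes at 19.5 to 33.7 CPM; Ascl2 was at 0 in tamoxifen clone4_2. Id2, among the 3 most abundant with Gata3 and Elf3, was at 659 ± 244 CPM (SD, n = 3) and 498 ± 146 CPM (SD, n = 4).

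Of 15 other trophectoderm markers, 14 were tested and Psca was at 0 in each library. Among the 14, 12 were lower and 2 higher, against 48.3% lower over all genes, and 0 were called. An unadjusted p under 0.05 with a lower value was found for 4, against 3.28% of all genes. The median log2 fold change was -0.45, against 0.02. Among the 4 were the endocytic receptor Lrp2, the glucose transporter Slc2a3 and the water channel Aqp3, with log2 fold changes of -0.47 ± 0.19, -0.47 ± 0.15 and -0.49 ± 0.16 (SE). Sfn, an epithelial 14-3-3 protein, and Cldn4, a tight junction claudin, were the most abundant, at 1811 ± 415 and 1639.9 ± 262 CPM in vehicle and 1902 ± 75.6 and 1316 ± 186 CPM with tamoxifen.

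Summed over genes, the 5 keratins reached 8036, 5384 and 6189.7 CPM in the vehicle libraries, and 5556, 4732, 7005 and 4229 CPM in the tamoxifen libraries. The groups overlapped. The trophectoderm factors summed to 3808 to 4439.5 CPM in vehicle and 2714 to 3649 CPM with tamoxifen, and the other trophectoderm markers to 6341 to 7132 CPM and 5175 to 6122 CPM. In both of those sums, in which abundant genes weigh most, the groups did not overlap. The lists were chosen with earlier results of these data known, so this separation is a description only. Gene by gene, the tamoxifen libraries lay wholly below the vehicle libraries for 4 of the 18 factors and 3 of the 14 other markers, against 4.74% of all genes, and Sfn, the most abundant marker, overlapped. On the log2 scale the keratin sum had r = 0.81 with the other intermediate filament genes, 0.74 with the other trophectoderm markers, 0.70 with the anchors, 0.57 with the trophectoderm factors, -0.44 with epiblast markers and 0.05 with primitive endoderm markers over the 7 libraries, given as a description. The intermediate filament sum was mostly the lamins, whose r with Krt8 was 0.45 for Lmna, 0.11 for Lmnb1 and 0.56 for Lmnb2. Likewise the primitive endoderm sum was mostly Dab2, whose r with Krt8 was 0.29. Over that list r with Krt8 ran from -0.69 for Sox17 to 0.51 for Fgfr2. The part of trophectoderm cells in the keratin values was not tested.

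Markers of the labelled epiblast were present too. All 10 were tested, and 8 were higher and 2 lower, against 48.3% lower over all genes. The 10 markers summed to 1656 to 2185 CPM in vehicle and 1788 to 2657 CPM with tamoxifen. Nanog, a defining factor of the naive epiblast, was at 428 to 705 CPM. Nanog, Tfcp2l1 and Tdgf1 were the most abundant, at means of 544, 479.6 and 466 CPM over all libraries. Klf4 was the 1 epiblast marker with an unadjusted p under 0.05, at a log2 fold change of 0.49 ± 0.19 (SE). Over all genes, 2.69% were higher at such a p. Of 10 primitive endoderm markers 9 were tested, 6 higher and 3 lower. Sox17 and Lama1 had an unadjusted p under 0.05, against the same 2.69%, at log2 fold changes of 2.58 ± 0.75 and 1.35 ± 0.36 (SE). The most abundant of that list were Dab2, Gata6 and Pdgfra, at means of 686, 79.9 and 48.2 CPM over all libraries.

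**Figure D4:**
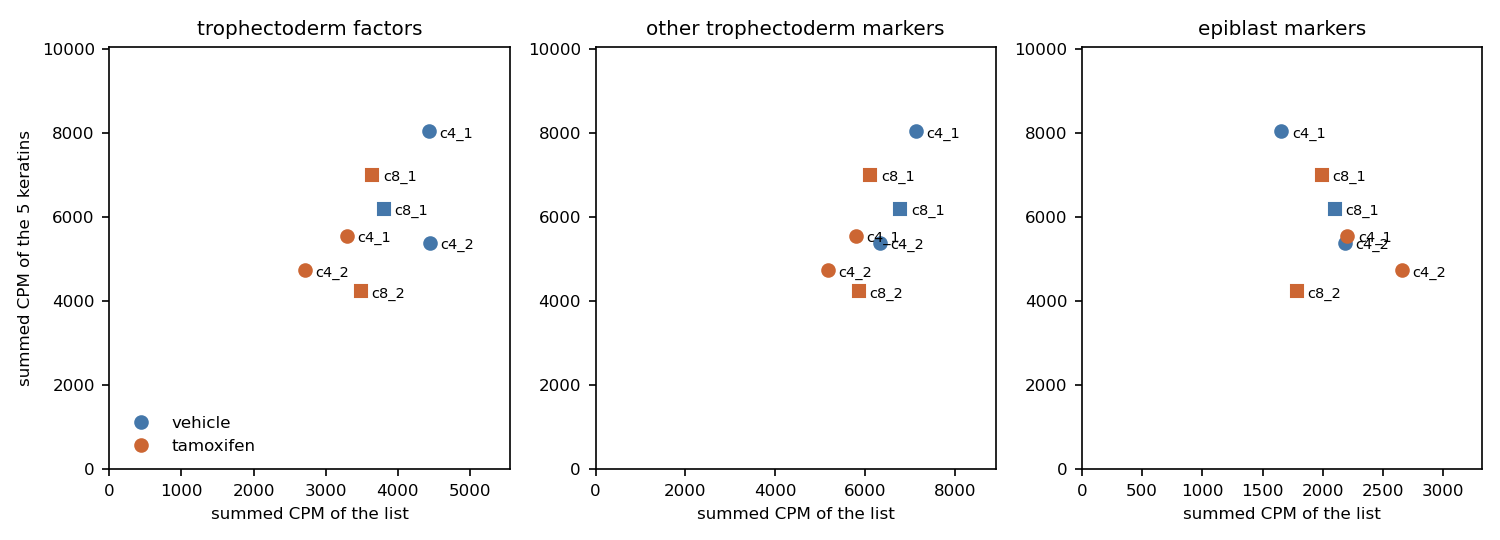
Summed CPM of the 5 keratins (y axis) against the summed CPM of the trophectoderm factors, of the other trophectoderm markers and of the epiblast markers (x axes), 1 point per library, vehicle in blue and tamoxifen in orange, circles for clone 4 and squares for clone 8. The groups separate along the x axis for both trophectoderm lists, which were chosen with earlier results known, and overlap on the keratin axis.

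**Figure D5:**
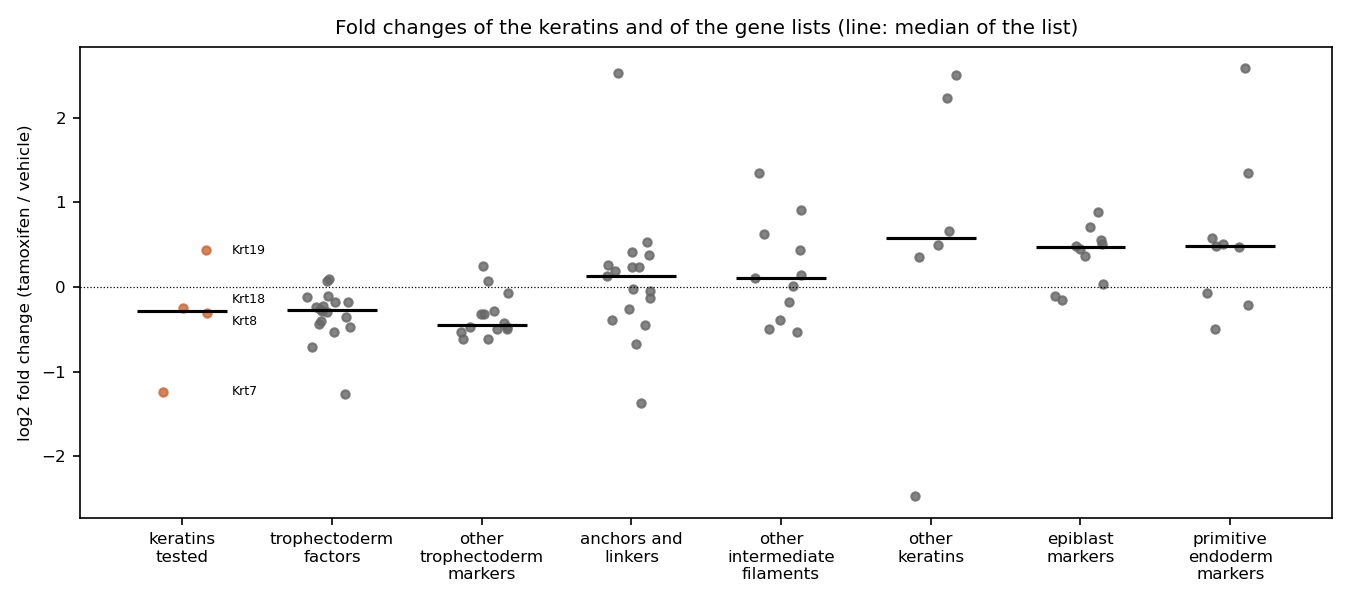
Log2 fold changes (y axis, tamoxifen over vehicle) of the tested genes of each list, 1 point per gene, with the median of the list as a line and the 4 tested keratins in orange. The medians of both trophectoderm lists are -0.27 and -0.45 and lie below 0; those of the epiblast and primitive endoderm lists are 0.47 and 0.49.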

How the data were processed

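The authors deposited a table of unnormalised counts for each Ensembl gene ID and library, per the file headers and the whole-number values. The submitters' processing notes name bcl2fastq 2.19.1, STAR 2.5.3a and mm10; the counting program, annotation and strand setting are not given in the sources used here. Symbols and coordinates are from GENCODE M21 (GRCm38), which matched 52489 of 52636 gene IDs. Libraries were amplified from 2 ng of RNA without stated molecular identifiers, so counts are not independent molecules.

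The test was edgeR 4.0.16 under R 4.3.3 (TMM factors, the edgeR expression filter by group, quasi-likelihood test, condition as the only term, all 7 libraries). P-values were adjusted by Benjamini-Hochberg over all 16248 tested genes, and an adjusted p under 0.05 was called. Log2 CPM used a prior count of 2. Levels per kb used the longest coding transcript. Sums, ratios and correlations carry no test. Near copies were found with blastn 2.17.0 (at least 300 nt at 80% identity). Alternatives used DESeq2 1.42.0 and limma 3.58.1. The fit was tested on simulated data. Those had less spread between libraries than these data and larger changes than any keratin here. They do not show the power of the fit for the keratins.

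The keratins, gene lists and rules were chosen with earlier results of these data known. Named from the lists are the 3 most abundant genes and those with an unadjusted p under 0.05; Cdx2, Eomes, Ascl2, Psca, Krt14, Krt17 and the genes at the extremes were named after their values were seen. The likeness rule took 3 genes per member. Some genes that these rules select are not reported here. Per the series text, 4 samples per condition were collected and 1 vehicle sample was discarded. Eppk1 of the anchor list was not analysed here.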

Additional observations from a re-analysis of the deposited data

Results flagged for a closer look

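In the tamoxifen group of 4, 3 of 48 checked values had 1 library far from the rest by Dixon's ratio (gap over range, above its critical value), where chance flags about 5% of groups. Krt42 in tamoxifen clone8_1 was at 0.650 CPM (18 counts) against at most 0.047 CPM in the others, a ratio of 0.927. Gata6, a primitive endoderm factor, was at 151 CPM in the same library against at most 71.9 CPM (ratio 0.977). Lmnb1, a lamin, was at 224 CPM in tamoxifen clone8_2 against at most 159.7 CPM (ratio 0.832).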

How the results depend on the processing

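No tested member passed the adjusted threshold under any of the 15 alternatives (adjusted p from 0.404 to 0.992). Krt7, Krt8 and Krt18 were lower with tamoxifen in all 15, at unadjusted p under 0.05 in 10, 2 and 1 of them. The number of genes called over the whole table, 0 with 970 at an unadjusted p under 0.05 in edgeR, was 4 with DESeq2, 2 without both clone8_1 libraries, and 0 in each fit that left out 1 library. Krt19 ranged from -0.33 to 0.84 over those fits and changed sign without tamoxifen clone4_2; the cause was not tested. With the replicate block (same-named libraries, tamoxifen clone8_2 left out) the changes were -0.96 for Krt7, -0.24 for Krt8, -0.12 for Krt18 and 0.52 for Krt19, with 0 genes called. Same-named libraries did not deviate together (r = 0.008, 0.021 and -0.068), and 0 of 3 vehicle libraries correlated best with their namesake. The summed keratin level differed by -1156 CPM, and by -1733 to -406 CPM over the fits that left out 1 library. The type ratio difference, -0.009, ranged from -0.056 to 0.037 over those fits and was 0.056 without both clone8_1 libraries, all smaller than the SD of the tamoxifen libraries (0.114). The clone interaction called 0 of the 5 members, with and without the filter. Krt10, a keratin outside them, was called in both, as described below. Krt42 was below the filter and has no fold change. At 3 against 4 pooled libraries with a biological coefficient of variation of 0.456, small changes of single genes are not resolved.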

Other observations

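Krt10 and Krt87, keratins outside the 5, were singled out after their values were seen. Krt10 had 91 counts (2.22 CPM) in vehicle clone8_1 and 270 to 646 counts (9.59 to 18.3 CPM) in the other libraries. Its clone by condition interaction was 2.97 ± 0.59 (SE; adjusted p = 0.0348, edgeR), and it rests on that library, the single vehicle library of clone 8. In clone 4 its log2 ratio of mean CPM was -0.04 and in clone 8 it was 2.93. Krt87 ends 724 nt after Krt7 on the other strand and was highest in the same library, at 160 counts, against 0 to 47 in the others.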
